A study of Mus musculus with 4 samples.

Results

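Bile acids are made from cholesterol, and 9 genes for enzymes of this pathway were followed here through the open chromatin around them: Cyp7a1, Cyp8b1, Cyp27a1, Cyp7b1, Hsd3b7, Akr1d1, Acox2, Slc27a5 and Baat. They were taken by name from the 25458 genes to which the authors' annotation assigns at least 1 ATAC peak, a stretch of DNA that a transposase could reach in many nuclei. All 9 had a peak in at least 1 library, and together they held 25 of the 72302 wild-type peaks and 93 of the 106319 knockout peaks. Livers came from mice with bile duct ligation, an operation that dams bile back into the liver, and the groups were wild type and Mertk knockout, with 1 library each. Mertk encodes a receptor that macrophages use to take up dying cells. Nuclei from frozen liver were read with the 10x Multiome assay, which reads RNA and accessible DNA of the same nucleus. The labels give no strain, age, sex, time after surgery, number of animals per library or description of the knockout allele, and no unligated liver was analysed here.

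The libraries were not equally deep. The wild-type library held 40858512 ATAC fragments in 5828 nuclei, and the knockout library 83996145 in 5339, a ratio of 2.06 in fragments. Of the wild-type fragments 33.7% fell inside peaks called from that library, against 46% for the knockout fragments. The ratio of 2.06 counts all fragments and leaves this gap out. What the gap did to the peak calls was not tested. Peaks over the whole genome stood at a ratio of 1.47. Each genotype has 1 library and thus no replicates, so no p-value was computed and each difference below describes these preparations. Peaks were called separately per library, so a missing peak means that none was called at this depth, not that the DNA was closed.

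Bile acid synthesis belongs almost entirely to hepatocytes. In the classic route Cyp7a1 adds the first hydroxyl group to cholesterol and Cyp8b1 then directs the product to cholic acid, whereas in the alternative route Cyp27a1 oxidises the side chain first and Cyp7b1 hydroxylates the resulting oxysterol. Hsd3b7 and Akr1d1 reshape the sterol ring, Acox2 opens the shortening of the side chain in peroxisomes, and Slc27a5 and Baat attach coenzyme A and then taurine or glycine. The enzymes of the alternative route and Hsd3b7 are also known from macrophages and other cells, where they handle oxysterols.

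Promoter sequence in the RefSeq table of build GRCm38.p6, the assembly behind mm10, was present for 5 of the 9 genes: Cyp8b1, Cyp27a1, Hsd3b7, Akr1d1 and Acox2. Entries for Cyp7a1, Cyp7b1, Slc27a5 and Baat were not used here. Below are the 250 bases before a gene start for 3 of them, because they show both patterns found in the data: at Cyp8b1 (chr9:121916306-121916555, minus strand) and Acox2 (chr14:8259020-8259269, minus strand) all 250 bases lay inside a knockout peak and none inside a wild-type peak, and at Hsd3b7 (chr7:127800359-127800608, plus strand) all lay inside a peak of each library. Each is written 5′ to 3′ on the gene's strand, and capitals mark matches to the patterns of letters described further on.
Cyp8b1: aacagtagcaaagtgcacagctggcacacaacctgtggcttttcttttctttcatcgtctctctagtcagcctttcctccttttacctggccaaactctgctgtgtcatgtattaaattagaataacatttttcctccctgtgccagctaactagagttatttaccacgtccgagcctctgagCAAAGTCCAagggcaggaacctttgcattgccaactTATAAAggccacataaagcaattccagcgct
Acox2: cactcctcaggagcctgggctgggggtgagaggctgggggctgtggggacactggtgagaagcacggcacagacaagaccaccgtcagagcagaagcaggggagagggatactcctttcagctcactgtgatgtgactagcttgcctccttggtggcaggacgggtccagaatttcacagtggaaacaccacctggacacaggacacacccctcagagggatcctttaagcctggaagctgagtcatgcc
Hsd3b7: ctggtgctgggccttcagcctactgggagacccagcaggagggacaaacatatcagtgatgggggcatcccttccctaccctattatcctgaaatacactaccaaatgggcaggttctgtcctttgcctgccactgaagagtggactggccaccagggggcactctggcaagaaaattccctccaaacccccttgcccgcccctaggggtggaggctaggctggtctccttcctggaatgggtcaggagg

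Every enzyme gene had more peaks in the knockout than in the wild-type library, and at 6 of the 9 the promoter carried a peak in the knockout library alone. How many of all genes had more knockout peaks was not counted, so the first of these counts supports nothing by itself. The sum was 25 wild-type and 93 knockout peaks, a ratio of 3.72 against 1.47 for all peaks. In length, the wild-type peaks of the 9 genes covered 22.1 kb and the knockout peaks 78 kb, against 74680 and 110332 kb over all pairs of peak and gene. Knockout promoter peaks were present at all 9 genes and wild-type promoter peaks at 3, Cyp27a1, Cyp7b1 and Hsd3b7. The reverse, a promoter peak called in the wild-type library alone, was seen at no member. Over all 25458 genes, 14854 had a wild-type and 17006 a knockout promoter peak, and 17563 had one in either library. Few genes could thus show the reverse, and its absence at 9 members supports nothing by itself. Among all 17563 genes with a promoter peak in either library, 15.4% had it in the knockout library alone. These member counts depended on the width of the peaks: with as many knockout as wild-type peaks, the widest kept, the knockout library alone had it at 2 members, and the wild-type library alone at another 2, Cyp7b1 and Hsd3b7.

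**Figure D1:**
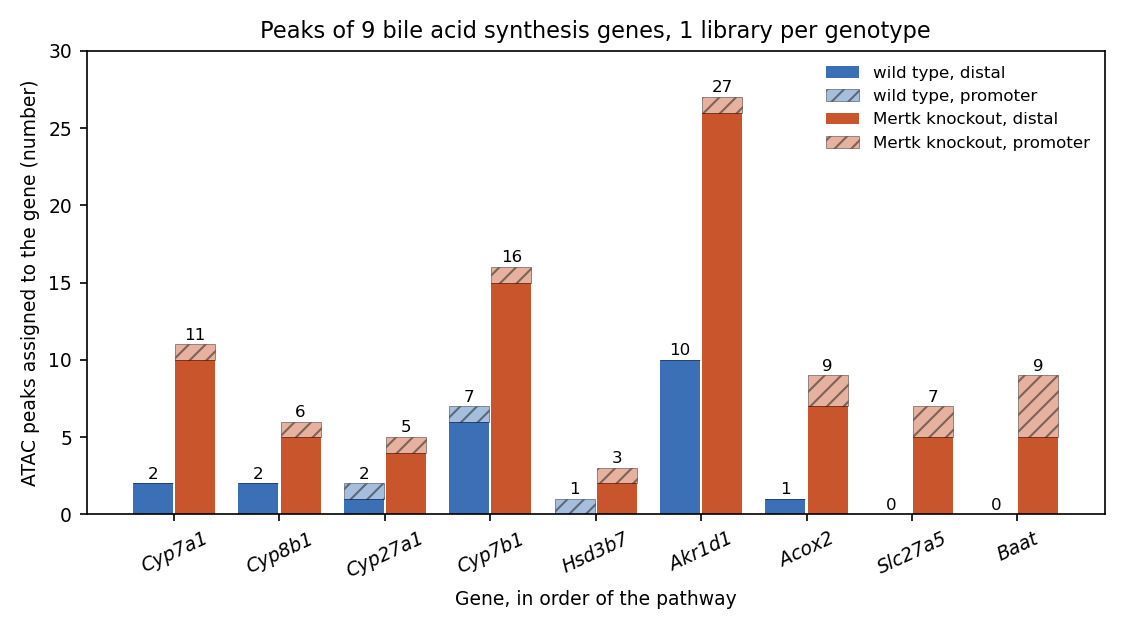
Number of ATAC peaks (vertical axis) assigned to each of the 9 genes (horizontal axis), as bars for the wild-type and Mertk knockout libraries, 1 library each, with promoter peaks hatched on top of distal peaks. Knockout bars are taller at every gene, and wild-type promoter peaks appear at Cyp27a1, Cyp7b1 and Hsd3b7 alone.

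At the enzymes of the classic route the promoter peak was a knockout peak, and the wild-type peaks lay outside the gene. Cyp7a1 (chromosome 4, 6265612 to 6275632, minus strand) had 2 wild-type peaks and 11 knockout peaks. Both wild-type peaks lay past the 3′ end of the gene, 17.2 and 18.9 kb beyond it, and the farther one overlapped a knockout peak. The knockout peaks included a promoter peak at 6275377 to 6276222, whose nearest wild-type peak was 26942 bp away, and others inside the gene and on both sides of it. Counted by position, within the gene and 5 kb around it, Cyp7a1 had 0 wild-type and 5 knockout peaks.

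Cyp8b1, a short gene (chromosome 9, 121914356 to 121916305, minus strand), had 2 wild-type and 6 knockout peaks. Its promoter peak, at 121915846 to 121916732, was in the knockout library alone and covered the sequence printed above. The peak about 3 kb upstream was common to both libraries. The remaining wild-type peak, 4.1 kb past the gene, was also assigned to the neighbouring Ackr2 and had no knockout counterpart, the nearest being 2501 bp away. Within the gene and 5 kb around it, Cyp8b1 had 2 wild-type and 4 knockout peaks. All 8 Cyp8b1 peaks had their centre within 10 kb of the gene start.

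The enzymes of the alternative route had open promoters in both libraries. At Cyp27a1 (chromosome 1, 74713148 to 74737897, plus strand) the wild-type promoter peak (74712750 to 74713612) and the knockout promoter peak (74712807 to 74713657) overlapped by 806 bp. The gene had 2 wild-type and 5 knockout peaks in all, and the 3 knockout peaks inside it beside the promoter overlapped no wild-type peak. The nearest of these lay 252 bp from the wild-type promoter peak. Each library also had an upstream peak shared with Ttll4, and those stood 2525 bp apart. At Cyp7b1 (chromosome 3, 18071944 to 18243890, minus strand) the promoter peaks overlapped by 762 bp. Of its 7 wild-type peaks, 6 overlapped a knockout peak, including a pair near 28 and 30 kb into the gene and a pair about 76 and 95 kb upstream. The knockout library had 16 peaks there. Of its 10 peaks with no wild-type counterpart, 6 lay deeper in the gene, 52.4 to 104 kb from the start, where the wild-type library had none.

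Both enzymes that act on the sterol ring had more knockout peaks, but on different ground. Hsd3b7 (chromosome 7, 127800609 to 127803802, plus strand) had 1 wild-type peak, the promoter peak, which overlapped that of the knockout library by 839 bp. Its other 2 knockout peaks overlapped no wild-type peak, though the nearer of them lay 237 bp from the wild-type promoter peak. Akr1d1 (chromosome 6, 37529978 to 37574921, plus strand) had the most peaks of the 9 genes, 10 wild-type and 27 knockout. All 10 wild-type peaks lay past the gene's end, from 14.4 to 67.6 kb beyond it, and 6 of them overlapped knockout peaks. The knockout library had a promoter peak (37529782 to 37530617), 8 more inside the gene and 3 upstream, none of which overlapped a wild-type peak. The promoter peak was 47958 bp from the nearest wild-type peak. Within the gene and 5 kb around it, Akr1d1 had 0 wild-type and 9 knockout peaks, so its 10 assigned wild-type peaks describe the stretch behind the gene rather than the gene.

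**Figure D2:**
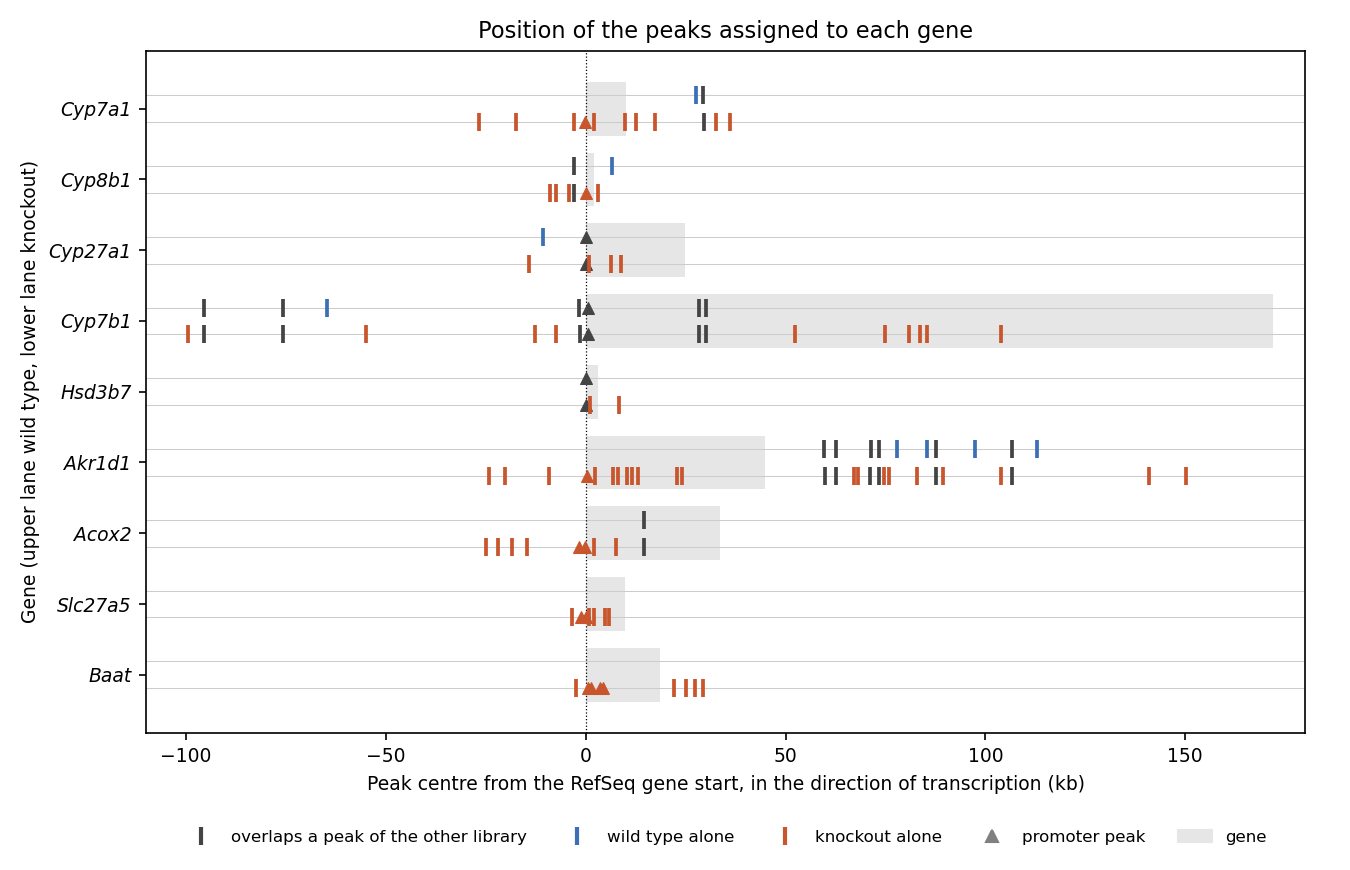
Position of each assigned peak's centre from the RefSeq gene start (horizontal axis, kb, in the direction of transcription) for the 9 genes (rows), with the wild-type library in the upper and the knockout library in the lower lane. Triangles are promoter peaks, ticks distal peaks, grey boxes the genes, dark marks peaks that overlap between libraries and coloured marks peaks of 1 library alone; all 10 wild-type peaks of Akr1d1 lie behind the gene.

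Acox2, Slc27a5 and Baat, which complete the side chain and conjugate it, had almost no wild-type peaks. Acox2 (chromosome 14, 8225511 to 8259019, minus strand) had 1 wild-type peak, 14.6 kb into the gene, which overlapped a knockout peak. It had 9 knockout peaks, 2 of them promoter peaks, at 8258655 to 8259574 and 8260209 to 8260963. Within 5 kb past the end of the gene lay a further wild-type peak and 3 further knockout peaks, assigned to Kctd6. Slc27a5 (chromosome 7, 12988346 to 12998192, minus strand) had no wild-type and 7 knockout peaks, 2 at the promoter (12997825 to 12998537 and 12998913 to 12999670). The closest wild-type peak, at 12986920 to 12987804, lay behind the gene and was assigned to Zfp446. Baat (chromosome 4, 49489416 to 49507915, minus strand) had no wild-type and 9 knockout peaks. Of these, 4 were promoter peaks, the most of any member, in pairs around 2 gene starts of the authors' annotation about 3 kb apart. The closest wild-type peak was 13004 bp from the nearest of these 4 promoter peaks. No wild-type peak together with at least 5 knockout peaks was seen at 1.75% of all 25458 genes, and Slc27a5 and Baat were among them.

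Peaks of the wild-type library at these genes were mostly present in the knockout library too, while most knockout peaks had no wild-type counterpart. By an overlap of at least 1 bp, 17 of 25 wild-type member peaks (68%) and 17 of 93 knockout member peaks (18.3%) were shared. Over all genes, 72.5% of wild-type and 49.5% of knockout peaks were shared, counting promoter and distal peaks. For promoter peaks, 3 of 14 knockout member peaks (21.4%) were shared against 78.9% over all genes. For distal peaks the shares were 17.7% of 79 against 44.3%. Where member peaks were shared the match was close, with 762 to 928 bp in common and a median of 839 bp, while all wild-type member peaks had a median width of 894 bp.

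All 6 wild-type peaks that lay within a member gene had a knockout counterpart, as did 75.5% of such peaks over all genes, and the 8 wild-type peaks without a counterpart were all outside the genes, at Cyp7a1, Cyp8b1, Cyp27a1, Cyp7b1 and Akr1d1. In the knockout library 41 peaks lay within a gene, of which 35 had no wild-type counterpart and 14.6% were shared, against 52.3% over all genes. Wild-type distal peaks were also far from the gene starts, at a median of 63.4 kb, with 13.6% within 10 kb. Knockout distal peaks had a median of 18.9 kb, with 35.9% within 10 kb. Over all genes the libraries were alike in this, at 16.2 and 16.7 kb and with 35.3% and 34.7% within 10 kb. Akr1d1 alone supplied 10 of the 22 wild-type distal peaks. Without it the medians were 27.2 kb for 12 wild-type and 13.9 kb for 52 knockout distances, with 25% and 44.2% within 10 kb.

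Summed over the 9 neighbourhoods, other peaks differed less between the libraries than the members' own. Within 100 kb of the 9 genes, wild-type peaks not assigned to the member itself numbered 95 and such knockout peaks 159, a ratio of 1.67. Of these, 85.3% of the wild-type and 51.6% of the knockout peaks were shared, against 68% and 18.3% of the members' own peaks. The ratio ranged from 1.19 around Hsd3b7 to 3.67 around Acox2, where 6 wild-type peaks stood against 22. Cyp7b1 was an exception, since the peaks around it stood at a ratio of 2.5, with 2 and 5, beside 7 and 16 of its own. Around Cyp7a1 the surrounding peaks were nearly equal in number, 9 and 11, while those of the gene itself were 2 and 11.

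As a size rule over all genes, the summed peak length of a gene was compared as a log2 ratio of knockout to wild type, with 1 kb added on both sides and the median gene's 0.39 subtracted. Genes with a mean of at least 2 kb were measured, 14692 in all, of which 10.3% lay at or above 1 and 4.08% at or below -1. Of the 9 members, 8 were measured. Higher by the rule were Baat (2.58), Slc27a5 (2.36), Acox2 (1.83) and Cyp7a1 (1.57), and 0 were lower. Between lay Akr1d1 (0.87), Cyp8b1 (0.73), Cyp7b1 (0.65) and Cyp27a1 (0.47). Hsd3b7, at 0.862 and 2.38 kb, did not reach the minimum. Of the 8, Cyp7b1 and Akr1d1 alone reached 2 kb in the wild-type library too. The other 6 passed the minimum through their knockout length, so the number of higher members supports nothing by itself. With no minimum, the median over all 9 was 0.89. Slc27a5 and Baat have no wild-type peak and are listed at 0 in the wild-type library, so they had to lie high, and their ratio is set by the added length: that of Baat was 3.44 with 0.5 kb and 1.83 with 2 kb, and that of Slc27a5 3.20 and 1.63. Counted by position within 5 kb, Akr1d1 stood at 2.74 and was higher by the rule too, while Slc27a5 stood at 1.50, Acox2 at 1.14 and Cyp8b1 at 0.33. With peaks assigned to 1 gene only, which drops the wild-type peak that Cyp8b1 shares with Ackr2, Cyp8b1 stood at 1.32 and was higher by the rule. Of all genes past the rule 71.6% were higher, 93.6% without subtracting the median and 60.6% when only as many knockout peaks as wild-type peaks were kept, the widest.

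**Figure D3:**
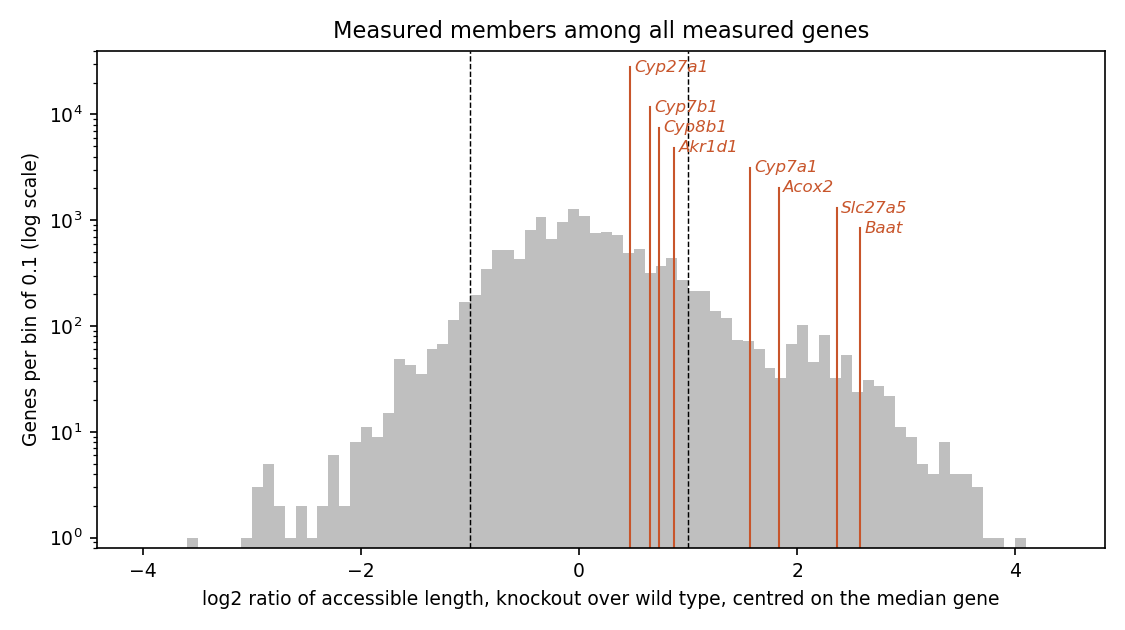
Distribution over 14692 measured genes of the centred log2 ratio of accessible length, knockout over wild type (horizontal axis), with the number of genes per bin on a log axis. Lines mark the 8 measured members and dashed lines the size rule at 1 and -1; all 8 lie above 0, and 4 lie beyond 1.

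Pairs of peak numbers like those of the members were seen at other genes as well. The pair of Baat, 0 and 9, was that of 27 genes, and so was the pair of Acox2, 1 and 9. That of Slc27a5 was shared by 55 genes, of Cyp7a1 by 26, of Cyp8b1 by 189 and of Cyp27a1 by 318, each count including the member. Akr1d1 was the only gene with 10 and 27. With 2 libraries no finer likeness between genes could be measured.

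The 5 member promoters with sequence differed from most open promoters in their CpG content. CpG dinucleotides mark the broadly active promoters of many genes. Over all 32851 promoter windows of 300 bases (250 before and 50 after a start), those with a peak in both libraries had a median of 21 CpG (quartiles 13 and 30), and those with a peak in the knockout library alone 7 (3 and 16). Akr1d1 had 1, the 2 windows of Acox2 had 2 and 4, and Cyp8b1 had 5. The members with peaks in both libraries, Hsd3b7 with 3 and Cyp27a1 with 10, were below the lower quartile of that class. Every member window thus lay below the median of its class, with Cyp8b1 and the Acox2 window with 4 still inside the quartiles of theirs.

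**Figure D4:**
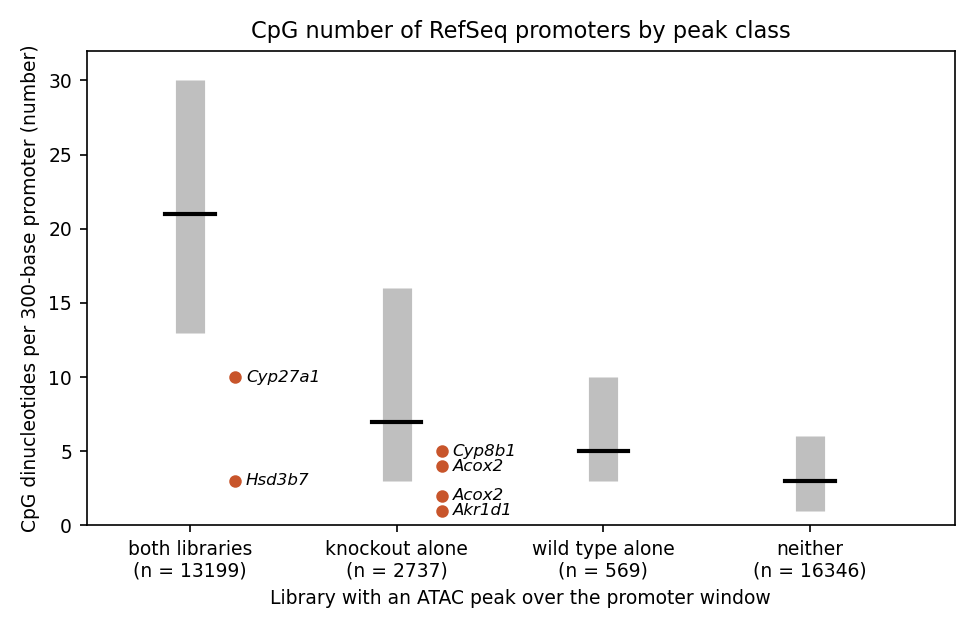
Number of CpG dinucleotides in 300-base RefSeq promoter windows (vertical axis) by the library with an ATAC peak over the window (horizontal axis). Grey bars span the quartiles, black lines are medians and points are the member promoters; all 6 member windows lie at or below 10.

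Letters that liver transcription factors are known to bind were searched in the 300-base windows on both strands. They were TCAAGGNCA for Nr5a2, which drives Cyp7a1 and Cyp8b1, CAAAGTCCA and CAAAGGTCA for Hnf4a and its relatives, TGTTTAC for Foxa factors, and the TATA box letters TATAAA. In the 6 member windows, matches were found at Cyp8b1 alone. CAAAGTCCA began at position -67 and TATAAA at -31, with the first transcribed base at 0, and both are in capitals in the sequence above. CAAAGTCCA occurs in 0.475% of all windows, in 1.61% of those with a peak in the knockout library alone and in 0.273% of those with a peak in both. TATAAA occurs in 13.6% of all windows, and 12.9% and 6.31% of these classes. TCAAGGNCA occurs in 1.62% of all windows, CAAAGGTCA in 0.478% and TGTTTAC in 3.65%. A match is a description of letters and shows no binding.

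Further genes of bile acid synthesis were varied. Of 12 such genes 3 were higher by the size rule, 0 were lower, 8 lay between and Amacr was not measured, with a median of 0.49 over the measured genes. Akr1c6 and Cyp2c70 have no wild-type peak and passed the minimum through the knockout library, so they had to lie high. The third higher gene, Akr1c14, with 0.849 kb in the wild-type library, also passed the minimum through its knockout length. Of the measured genes Cyp46a1 (-0.32) and Acot8 (-0.00) did not lie above 0. The higher genes were Akr1c6, with 0 wild-type and 8 knockout peaks, Akr1c14, with 1 and 11, and Cyp2c70, the mouse enzyme that makes muricholic acids, with 0 and 7. Peaks numbered 6 and 15 at Scp2, 8 and 16 at Abcd3, 3 and 6 at Cyp39a1, 6 and 9 at Hsd17b4, 5 and 9 at Slc27a2, 1 and 3 at Amacr, and 2 and 3 at Acot8. Cyp46a1, the cholesterol 24-hydroxylase known from brain, had 7 and 8. Ch25h, which makes the 25-hydroxycholesterol that Cyp7b1 and Hsd3b7 convert further, had 2 and 5, and its 2 promoter peaks were both knockout peaks. Of the 12 promoters, 8 had a peak in both libraries and the other 4 only in the knockout.

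Transporters and sensors of bile acids were set beside the enzymes. Of 14 bile salt transporter genes 9 were measured, 2 were higher and 0 lower, with a median of 0.81. Both higher genes have no wild-type peak and were measured through the knockout library alone, so they had to lie high. Among the measured genes the largest ratios were those of the sinusoidal uptake carrier Slco1b2 (0 and 9 peaks), the canalicular export pump Abcb11 (0 and 7) and Abcg8 (3 and 10, log2 ratio 0.96). Of 12 sensors and feedback genes all were measured, 4 were higher and 0 lower, with a median of 0.39, and 3 lay below 0. All 4 higher genes had a wild-type peak. Over all measured genes 10.3% were higher. Klb (0.98 kb) and Hnf4a (1.04 kb) did not reach 2 kb in the wild-type library and passed the minimum through their knockout length. The largest ratios were those of Klb, a co-receptor for the gut hormone that lowers Cyp7a1 (1 and 7), Hnf4a (1 and 7) and Nr1h4, the bile acid receptor FXR (6 and 20). These lists are beside the enzymes as description, and no test of a difference between lists was made.

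Most markers of hepatocytes also stood higher in the knockout library. Of 20 hepatocyte markers 11 were higher by the size rule and 0 lower (18 measured, median 1.10), with 43 wild-type and 148 knockout peaks and 35.8 against 125 kb. Wild-type promoter peaks were present at 5 of the 20 and knockout promoter peaks at all 20. Checked against the label liver, 7 of these defining genes, Alb, Cps1, Cyp3a11, Cyp2e1, Serpina1a, Asgr1 and Fgb, had no wild-type peak, and none lacked a knockout peak. Of the 11 higher markers 5 had no wild-type peak and were measured through the knockout library alone. Of the 18 measured markers, 11 had less than 2 kb in the wild-type library and passed the minimum through their knockout length. Among the higher markers Apoa1 alone (5.17 kb) reached 2 kb in the wild-type library too, so their number supports nothing by itself. Measured markers below 0 were Ass1 (-0.79), Ttr (-0.69) and Trf (-0.25). The largest ratios were at Cps1 (0 and 12 peaks) and Cyp3a11 (0 and 10). Fewer hepatocyte nuclei in a library and less open DNA per hepatocyte cannot be told apart in these peak lists, and neither can a difference in depth or between preparations be told apart from genotype. Their part in the values of the 9 enzymes was not tested.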

How the data were processed

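Peak lists and peak annotations from 1 ATAC library per genotype and per-barcode tables of the paired RNA libraries were used. The authors processed each library in a separate cellranger-arc 2.0.2 run on mm10, per the file headers. How peaks were called within that run is not stated in the headers or labels. The lists hold positions and no score. Raw counts of fragments and UMIs per barcode, as deposited, served for depth alone. Depth limits which peaks could be called. A gene-by-nucleus matrix was not used here, so doublets were not treated and no expression is reported.

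Only assembled nuclear chromosomes were used. Each member's promoter and distal peaks follow the gene assignments of the authors' annotation. Coordinates are counted from 1, and gene spans and promoter windows are from RefSeq GRCm38.p6. Peaks were shared at an overlap of at least 1 bp, with code checked against bedtools 2.31.1. The ratio calculation was tested on simulated peak numbers with large planted changes, at genes with more peaks than several members have. That test does not cover those members. Scripts ran under Python 3.11.15 with pandas 2.3.3, numpy 2.4.6 and scipy 1.17.1. No test between genotypes was possible with 1 library each.

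The members, gene lists, size rule and alternatives were chosen with earlier results of these data known. Named were all members, all further synthesis genes, the 3 transporters and 3 sensors and the 2 hepatocyte markers with the largest absolute ratios, and genes sharing a member's peak. Some items under these rules are not reported here. Zfp446, Kctd6, Ass1, Ttr, Trf, Apoa1, Dcn, Bicc1 and the hepatocyte markers with no wild-type peak were named after their values were seen.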

Additional observations from a re-analysis of the deposited data

How the results depend on the processing

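All 8 measured members kept a ratio above 0 under each alternative that measured them, and none was lower by the size rule under any of the 11 alternatives. Of 78 single ratios under these alternatives 9 differed from the reported value by more than 1.5-fold and 0 changed sign. In the reported setting 6 of the 8 members passed the minimum through their knockout length. Baat and Slc27a5, with no assigned wild-type peak, had to lie above 0, so the unchanged signs support nothing by themselves. The number of members higher by the rule was 4, and it became 7 without centring, 2 (Cyp7a1 and Acox2) with the widest knockout peaks alone, which set a minimum of 851 bp on the knockout list only, and 0 with promoter peaks alone, since no member then reached 2 kb. It was 5 with peaks of 1 gene, which added Cyp8b1, and 5 by position, which added Akr1d1. With those widest peaks the members had 54 knockout peaks in place of 93, Baat and Slc27a5 kept 2 and 3, and the promoter peak was in the knockout library alone at 2 members and in the wild-type library alone at 2, in place of 6 and 0. Without Akr1d1, an alternative added after seeing the data, distances of distal peaks from the gene start were shorter in both libraries, as the report gives. Assigned by position within 5 kb of the gene, the members had 11 wild-type and 56 knockout peaks. The number of transporter genes higher by the rule, 2 in the report, was 5 with no length minimum and 4 with the widest knockout peaks. The shared shares stayed within their 95% exact (Clopper-Pearson) intervals of 46.5% to 85.1% for wild-type and 11% to 27.6% for knockout member peaks. These intervals cover counting error only and treat peaks of the same gene as independent. With the widest knockout peaks the shares were 52% and 24.1%, in place of 68% and 18.3%. Counting peaks within 500 bp of each other as shared gave 68% and 21.5%. Over all genes, 1514 were higher and 600 lower by the rule. The higher number was 2884 without centring, 2872 with no minimum and 5 with promoter peaks alone (83.3% of the genes beyond either limit). The lower number was 197, 1334 and 1 under these settings, 310 with 2 kb added and 997 with peak numbers in place of length. Where a value moved and the setting itself does not give the reason, the cause was not tested. The sequence comparison inside peaks was not run, since the promoter windows alone had sequence. No paired analysis was possible because each genotype has 1 library, and for the same reason no replicate was left out.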

Other observations

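Markers of other cell types that a liver nucleus preparation can hold did not share 1 direction. Stellate cell markers, for the matrix-producing cells of scarring liver, had 22 wild-type and 71 knockout peaks over 10 genes, with 6 higher and 0 lower by the size rule and a median of 1.85. Of these 6, 1 had no wild-type peak, and Dcn alone (3.19 kb) reached 2 kb in the wild-type library too. The other higher genes passed the minimum through their knockout length, and the median covers the 7 measured genes, of which 1 lay below 0. Cholangiocyte markers, for bile duct cells, had 23 and 62 peaks over 12 genes. Of 7 measured, 4 were higher and 0 lower, with a median of 1.07, and 3 lay below 0. Of the 4, 2 had no wild-type peak, and Bicc1 alone (2.56 kb) reached 2 kb in the wild-type library. Endothelial markers had 68 and 126 over 8 genes, with 1 higher, 1 below 0 and a median of 0.48.

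The medians of the blood cell lists lay below that of all genes, but not every marker did. Macrophage markers had 91 wild-type and 76 knockout peaks over 14 genes, with 0 higher and 3 lower and a median of -0.56, and 1 of the 9 measured lay above 0. Neutrophil markers had 34 and 32 over 8 genes (1 lower, median -0.66 over 5 measured, 2 of them above 0). T and NK cell markers had 22 and 12 over 8 genes (2 lower, median -1.17), with promoter peaks at 4 of them in the wild-type library and at 0 in the knockout library. B cell markers had 11 and 8 over 6 genes, of which 2 were measured (median -0.18).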
